A study of Mus musculus with 9 samples.

Results

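The comparison described here set tumour cells lacking Kmt2d beside wild-type (WT) tumour cells of the same line, 168FARN, a mouse mammary tumour line, grown as primary tumours in the mammary fat pad of female BALB/c mice that were 5 to 6 weeks old when purchased. Tumour cells were taken as the cell barcodes that had over 500 but under 7500 genes detected, under 15% mitochondrial counts and at least 1 unique molecular identifier (UMI) of H2BMc, the transcript of an H2B-mCherry reporter with which the injected cells had been transduced. These limits left 8430 cells of 32065 kept cells in the 6 libraries of both genotypes, of 58645 kept cells in the whole series. Kmt2d KO libraries 1, 2 and 3 gave 1851, 2028 and 2817 of them, and WT libraries 1, 2 and 3 gave 448, 925 and 361. Each library was 1 whole tumour, digested and cleared of debris before droplet-based 5′ single-cell sequencing. The Kmt2d KO cells had been made by transient transfection of Cas9 with a pool of 3 guides and repeated sorting, and were kept as a pool rather than as single clones. The WT cells were the parental line with the same reporter. The 3 tumours of a genotype were therefore replicates of the mouse and the tumour, and the knockout line itself was made once. A difference between the lines that arose in making them cannot be told apart from the loss of Kmt2d. Numbers 1 to 3 only name libraries. The series also holds 3 Kmt2c KO libraries, from tumours of the same line with Kmt2c knocked out. They entered the statistical fit, where they add to the estimate of spread, and are shown for comparison.

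KMT2D is a histone methyltransferase that places monomethylation on lysine 4 of histone H3 at enhancers. It works in a large complex that also holds the H3K27 demethylase KDM6A, encoded by Kdm6a, and its paralogue KMT2C forms a complex of the same make-up. Both genes are often mutated in human breast cancers. The 3 guides are printed because they define the knockout, each with its protospacer in lower case and its adjoining NGG motif in capitals. They were read from the study's oligonucleotide list and matched to the mouse genome build NCBIM37, which is not the build of the count files. Forward oligonucleotides were used, and for guide 2 the listed reverse oligonucleotide is not the complement of the forward one, so that its sequence is less certain.
Kmt2d guide 1, chr15:98701571-98701590, plus strand: acggtaaatccaggtcggagTGG
Kmt2d guide 2, chr15:98701464-98701483, plus strand: gaaatcctcatccgagaacaTGG
Kmt2d guide 3, chr15:98701588-98701607, plus strand: gagtggtcacccttcccccgGGG
All 3 lie in the first exon of the gene, which is on the minus strand and bears the older symbol Mll2 in that annotation. Their distances from the annotated gene start are 24, 131 and 7 bases, in a stretch annotated as untranslated.

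The Kmt2d transcript was not lower in the knockout cells. Kmt2d stood at 25.9, 31.1 and 23.9 CPM in Kmt2d KO libraries 1 to 3, against 21.2, 19.2 and 15.3 CPM in WT, where CPM are the UMIs of a gene scaled to a common library total, here with library factors from the trimmed mean of M values (TMM). Every knockout library lay above every WT library, and the log2 difference was 0.54 ± 0.15 (SE), which did not pass the threshold (adjusted p = 0.104, and 0.108 without library 2). Small insertions and deletions need not remove a transcript, and a count of UMIs per gene does not give the sequence at the cut sites. The level therefore does not check the edit. For the edit itself, the paper reports only mutant reads when the targeted Kmt2d region of these knockout cells was sequenced. It also reports less KMT2D protein in them by immunoblot. Kmt2c levels ran from 48.3 to 51.8 CPM in Kmt2d KO and from 47.7 to 49.7 CPM in WT, and Kdm6a at 34.0 to 37.9 against 33.6 to 35.8 CPM. Of 9 tested members of the KMT2C/D complex, 0 passed the test, with a median log2 difference of 0.02. Among 15 other H3K4 and H3K27 enzymes, 0 passed as well, with a median of 0.06.

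H2BMc chose the cells, and Krt8 was the other marker of tumour cells. Krt8, a keratin of luminal epithelium, was detected in 78.5 to 85.0% of the H2BMc cells of Kmt2d KO libraries and in 92.6 to 95.3% of those of WT libraries (two-sided exact permutation test, p = 0.10, the smallest that 3 against 3 allows). Among kept barcodes without H2BMc, at median depths of 1735 to 8207 UMIs in Kmt2d KO and 7745 to 9153 in WT, it was found in 49.1 to 68.6% and 48.3 to 67.2%. Median depth was 11222 to 14789 UMIs per cell in Kmt2d KO and 13729 to 24081 in WT libraries, and the summed UMIs per library ran from 9779795 to 47951145. H2BMc cells made up 19.4 to 30.9% of kept cells in Kmt2d KO and 37.8 to 38.9% in WT libraries, after WT libraries 1 and 3 had lost 50.7% and 68.5% of their barcodes to the mitochondrial limit. Summed markers of myeloid cells (14 genes) reached 31.2 to 108 CPM in Kmt2d KO and 30.8 to 55.8 CPM in WT. Library 2 was the highest, and Cd74 had the highest mean level of the 14 genes. Lymphoid markers (10 genes, Ms4a1 at 0) reached 1.00 to 1.47 against 0.1 to 0.625 CPM. The endothelial (9 genes), fibroblast (8), mural (6, Notch3 at 0) and erythrocyte (5) lists overlapped between the genotypes. H2BMc UMIs were also found in barcodes with Ptprc and no Krt8, at 1.31, 6.06 and 4.03% in Kmt2d KO libraries and 0, 1.32 and 0% in WT libraries. Pairs of the 6 libraries shared 0 to 9 barcodes, at most 0.973% of the smaller.

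A library that goes against its label has to be described first. The library labelled Kmt2d KO 2 did not resemble Kmt2d KO libraries 1 and 3, and on the genes that set those libraries apart from the Kmt2c KO libraries of the series it resembled the latter. Across 9945 genes with a mean of at least 5 CPM, the SD of the log2(CPM + 1) difference was 0.158 between Kmt2d KO libraries 1 and 3. It was 0.411 and 0.400 between library 2 and libraries 1 and 3, and 0.210, 0.299 and 0.252 between library 2 and Kmt2c KO libraries 1, 2 and 3, which differed from each other by 0.204 to 0.254. By a rule set after the data were seen, 63 genes reaching 5 CPM in some library parted Kmt2d KO libraries 1 and 3 from all 3 Kmt2c KO libraries by at least 4-fold. Library 2 was nearer to the Kmt2c KO libraries in 63 of the 63. At 2-fold, it was nearer to them in 42 of 44 genes higher in libraries 1 and 3 and in 141 of 142 genes lower there. No gene parted all 3 libraries labelled Kmt2d KO from all 3 Kmt2c KO libraries by 4-fold. By 2-fold 1 gene did, Cavin2, at 14.5, 14.2 and 13.6 CPM in Kmt2d KO libraries 1 to 3 and 3.93 to 5.45 CPM in Kmt2c KO. By 4-fold, library 2 alone was parted from all Kmt2c KO libraries in 1 gene and from Kmt2d KO libraries 1 and 3 in 74.

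**Figure D1:**
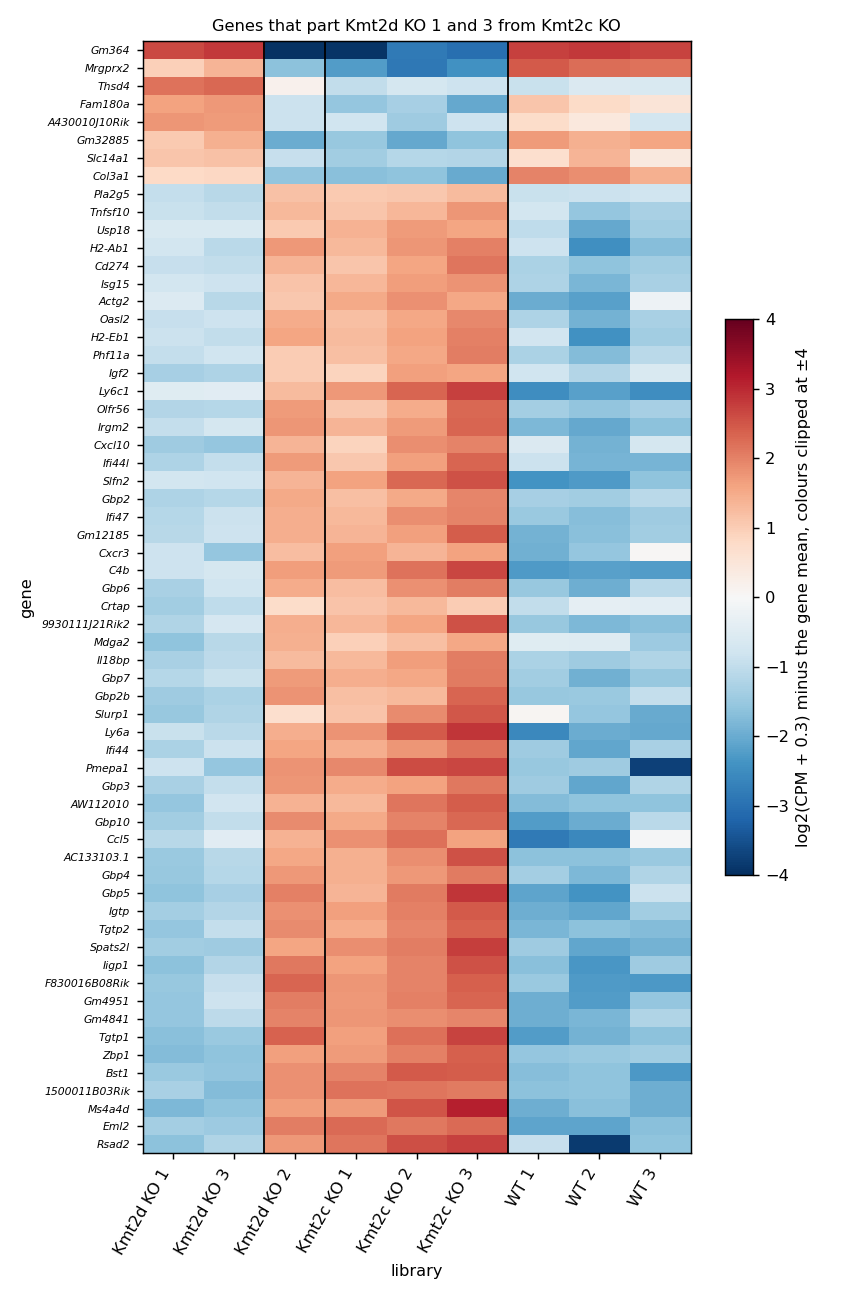
Levels of 62 of the 63 genes that part Kmt2d KO libraries 1 and 3 from the Kmt2c KO libraries, one row a gene and one column a library. Colour gives log2(CPM + 0.3) minus the gene's mean over the 9 libraries, clipped at ±4, and the column of the library labelled Kmt2d KO 2 is nearer in colour to the Kmt2c KO columns than to Kmt2d KO libraries 1 and 3 in both blocks of genes, though for some genes it lies between them.

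The predicted gene Gm364 gave the plainest case. Without TMM scaling its level was 44.6 CPM in library 1 and 50.8 CPM in library 3 of Kmt2d KO, 0.164 CPM in library 2 and 0.176, 0.722 and 0.599 CPM in Kmt2c KO libraries. Col3a1, a fibrillar collagen, stood at 64.1 and 65.1 CPM in libraries 1 and 3, 12 CPM in library 2 and 8.78 to 11.7 CPM in Kmt2c KO. In the other direction, Eml2, a microtubule-associated gene, stood at 0.204 and 0.167 CPM in libraries 1 and 3, 5.01 CPM in library 2 and 5.25 to 5.93 CPM in Kmt2c KO. Igtp, an interferon-induced GTPase, stood at 24.5 and 27.8 CPM in libraries 1 and 3, 225 CPM in library 2 and 196 to 350 CPM in Kmt2c KO. Library 2 lay within the Kmt2c KO range for 2 of the 9 genes higher in libraries 1 and 3 and for 32 of the 54 lower there. For others it lay between, as for Thsd4, at 12.3 CPM against 49.5 and 54.5 CPM in libraries 1 and 3 and 5.29 to 6.53 CPM in Kmt2c KO, and for Ly6a, at 639 CPM against 126 and 111 CPM and 807 to 1688 CPM. Whether this library came from a tumour of another genotype or from a Kmt2d KO tumour with such levels was not tested. It keeps its label below, and values without it are given beside the main results that it moves.

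The test fitted all 9 libraries, the 3 Kmt2c KO libraries included, and compared Kmt2d KO with WT. With the libraries as labelled, 320 of 14089 genes tested passed an adjusted p of 0.05 in edgeR's quasi-likelihood test, 2.27% of them. Of these, 147 were higher in Kmt2d KO (1.04%) and 173 lower (1.23%), and 150 differed by at least 1 on the log2 scale. The median log2 difference over all genes was 0.01. For each of the 320 genes, all 3 Kmt2d KO libraries lay on the same side of all 3 WT libraries. Without any test, 1559 genes (11.1%) lay above and 1772 (12.6%) below every WT library. Leaving out library 2 raised the count to 823 of 14208 genes (5.79%), with 403 higher (2.84%) and 420 lower (2.96%), and 319 of the 320 genes were among them. Leaving out a WT library lowered the count to 98, 102 and 110 for WT libraries 1, 2 and 3, and without Kmt2d KO library 3 it was 173. A fit of the Kmt2d KO and WT libraries alone called 177. Of 44 genes that passed and were picked by set rules for closer description, 20 also passed under each of 23 alternative settings, and 24 lost the call under at least 1.

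**Figure D2:**
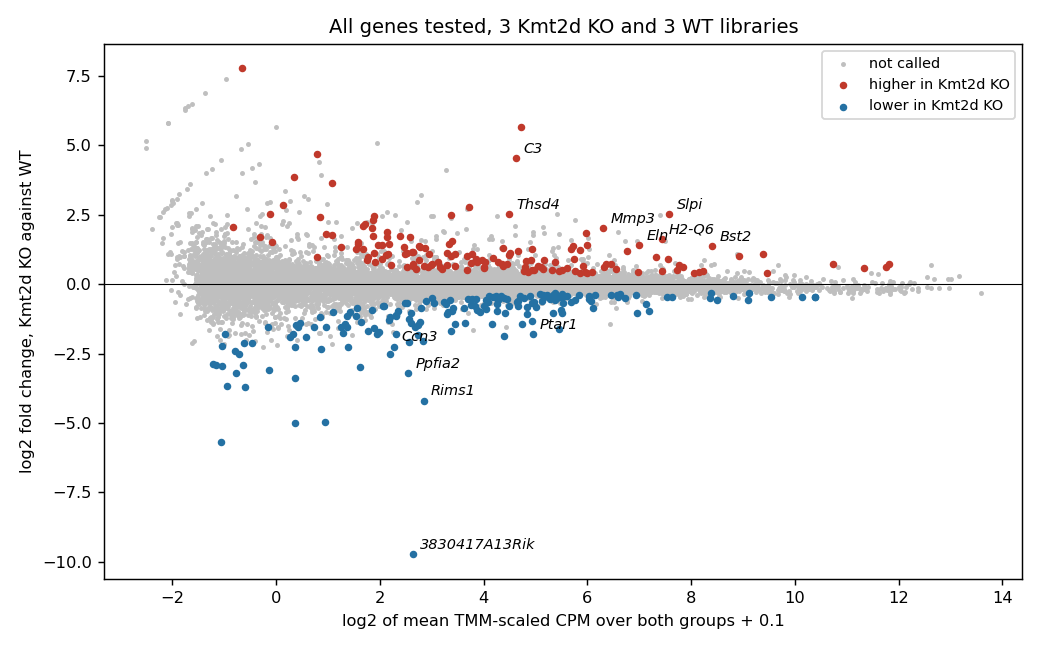
Log2 fold change of Kmt2d KO against WT for the 14089 genes tested, against the log2 of the mean TMM-scaled CPM plus 0.1. Red points are the 147 genes called higher and blue points the 173 called lower, and Ptar1 and 3830417A13Rik are among the labelled falls.

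The 2 smallest p-values belonged to genes that were low in all 3 Kmt2d KO libraries, library 2 included. Ptar1, which encodes a prenyltransferase subunit, stood at 12.8, 14.5 and 13.9 CPM in Kmt2d KO libraries 1 to 3 and at 51.0, 47.0 and 45.2 CPM in WT libraries. It fell by 1.79 ± 0.09 (SE) on the log2 scale (adjusted p = 1.2e-05), the smallest p of all genes. The knockout libraries spread over less than 2 CPM, far below every WT library. The X-linked gene 3830417A13Rik had 1 UMI over the 3 Kmt2d KO libraries, in library 2, against 416 UMIs over the WT libraries, where it stood at 7.44, 12.7 and 16.7 CPM (adjusted p = 8.7e-05). Rims1, which encodes an active-zone protein of synapses, was low in all 3 but unevenly so, and stood at 0.286, 0.0320 and 1.62 CPM in Kmt2d KO and 16.6, 9.90 and 14.2 CPM in WT libraries. It fell by 4.19 ± 0.67 (adjusted p = 0.0108), a call lost without WT library 1 (0.0581) or WT library 3 (0.0519).

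Further falls of large size were found in single genes of varied roles. Ccn3, a matricellular regulator of growth, stood at 1.39, 1.85 and 1.64 CPM against 7.74, 8.43 and 7.31 CPM (log2 difference -2.26 ± 0.17, adjusted p = 0.000287). Ppfia2, encoding the scaffold protein liprin-alpha-2, stood at 0.696, 0.895 and 1.64 CPM against 10.2, 9.69 and 11.4 CPM (-3.21 ± 0.41, 0.00363). Neither gene's groups came near to each other. Setbp1 (-2.52), Mctp1 (-2.07), Igsf3 (-1.82) and Pdgfc (-2.27), the last a growth factor of the PDGF family, fell as well, with adjusted p of 0.0011 to 0.00467, and Pdgfc was the 1 of 23 tested growth factors and receptors to pass, at a list median of 0.03. Without library 2, 4 genes of that list fell and 0 rose, at a median of -0.25. Over all genes tested 2.27% passed, and without library 2 2.96% fell and 2.84% rose. Among the rises of this kind, Arhgap30, a GTPase-activating protein, stood at 5.61, 5.63 and 6.59 CPM against 0.992, 1.26 and 1.36 CPM (2.30 ± 0.18, 0.000287), and Cd84, a receptor of the SLAM family, at 5.28, 4.70 and 5.64 against 0.893, 1.47 and 1.04 CPM (2.16 ± 0.20, 0.000875). Disp1, which takes part in release of Hedgehog proteins, also rose (2.03 ± 0.17, 0.000425). These 3 rises passed without library 2 as well, with log2 differences of 2.08 to 2.34.

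**Figure D3:**
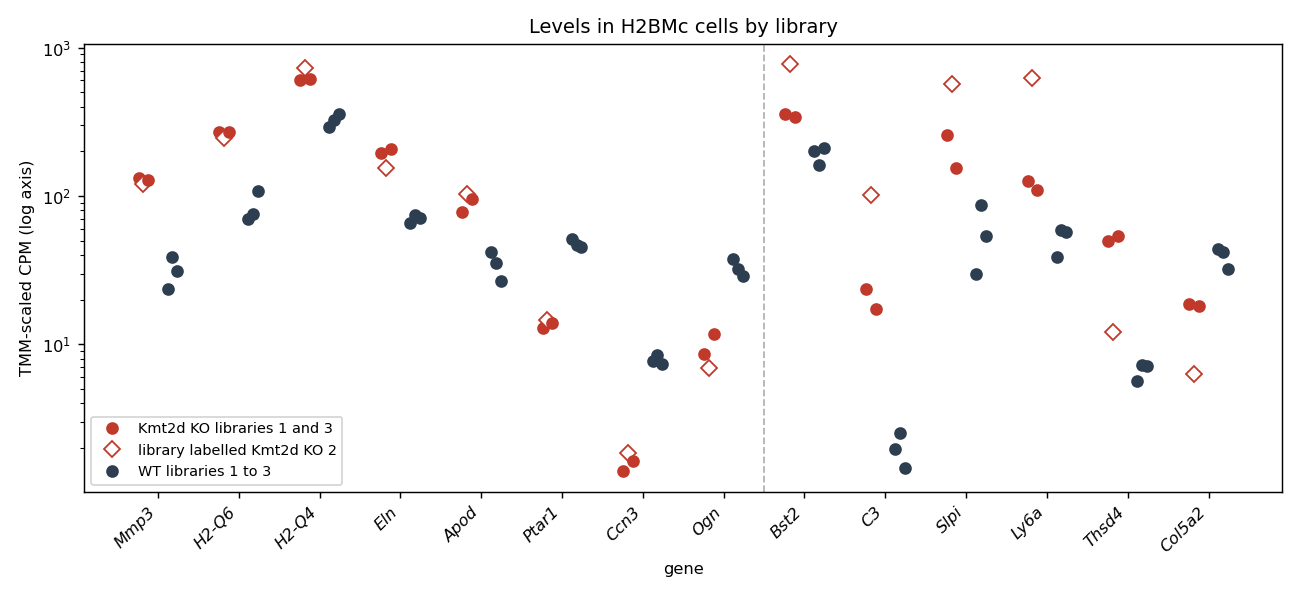
TMM-scaled CPM of 14 genes by library on a log axis, with Kmt2d KO libraries 1 and 3 as filled red circles, the library labelled Kmt2d KO 2 as an open diamond and WT libraries as dark circles. Left of the dashed line the 3 Kmt2d KO libraries lie close together, and right of it library 2 lies apart from libraries 1 and 3, above them for Bst2, C3, Slpi and Ly6a and below them for Thsd4 and Col5a2.

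Mmp3, which encodes stromelysin-1, a protease that cuts matrix proteins and activates other metalloproteinases, was higher in all 3 Kmt2d KO libraries. It stood at 133, 121 and 127 CPM against 23.7, 38.7 and 31.3 CPM in WT libraries, that is 127 ± 6.04 against 31.3 ± 7.49 CPM (SD, n = 3 each). The log2 difference was 2.01 ± 0.24 (adjusted p = 0.00252, and 0.000468 without library 2), and the groups were far apart. Mmp3 was the 1 of 10 tested metalloproteinases to pass, and 9 of the 10 differences were positive, with a median of 0.39. Over all genes tested 2.27% passed, and 7158 of 14089 differences were positive. Mmp13, a collagenase, had 120 UMIs in Kmt2d KO and 2 in WT libraries, whose summed UMIs were fewer. Its levels were 1.84, 1.76 and 0.411 against 0, 0.14 and 0 CPM. It did not pass (adjusted p = 0.127), nor did Mmp10, at 8.22, 11 and 6.59 against 4.46, 7.80 and 5.33 CPM (0.348). Mmp14, a membrane-anchored metalloproteinase, stood at 300 to 471 CPM in Kmt2d KO and 360 to 457 CPM in WT libraries. The stretch of the Mmp3 promoter below, from RefSeq on GRCm38.p6, is shown for the AP-1 letters TGAGTCA in capitals, a motif known from this promoter in other work.
Mmp3, chr9:7445752-7445806, plus strand: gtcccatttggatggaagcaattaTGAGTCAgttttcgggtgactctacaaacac
The motif ends 39 bases before the annotated start. On either strand, it was found in the 250 bases upstream of the start in 4.46% of 32851 RefSeq promoters.

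The share of tumour cells with an Mmp3 UMI was higher too. After each cell was thinned to 5000 UMIs, Mmp3 was found in 36.8, 30.2 and 36.6% of cells of Kmt2d KO libraries 1 to 3 and in 8.05, 13.9 and 9.77% of those of WT libraries. Without thinning, the shares were 53.7, 41.4 and 56.3% against 20.1, 26.7 and 25.8%. The thinning left out 155, 224 and 466 cells of the Kmt2d KO and 13, 34 and 13 cells of the WT libraries. At the same depth Ptar1 was found in 6.01, 8.04 and 6.59% against 23.2, 20.3 and 19.5% of cells. Krt8 was found in 76.9, 63.1 and 75.9% against 78.2, 83.1 and 83.0%, still below every WT library in all 3 Kmt2d KO libraries.

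Among 26 tested matrix glycoproteins and proteoglycans 3 rose (Eln, Hspg2 and Mgp) and 1 fell (Ogn). Among 18 tested collagens 1 rose (Col16a1) and 1 fell (Col5a2). Over all genes tested 1.04% rose and 1.23% fell. Eln, encoding elastin, stood at 195, 155 and 208 CPM against 66.1, 74.7 and 70.5 CPM (1.40 ± 0.12, adjusted p = 0.000425). Hspg2, encoding perlecan of basement membranes, stood at 205, 205 and 198 against 153, 132 and 151 CPM (0.48 ± 0.09, 0.0226). Col16a1 stood at 110, 109 and 114 against 81.1, 83.1 and 66.3 CPM (0.53 ± 0.10, 0.0266). In each of these the libraries of both genotypes were close among themselves and did not overlap. Ogn, encoding osteoglycin, stood at 8.59, 6.94 and 11.7 against 37.4, 32.3 and 28.9 CPM (-1.85 ± 0.24, 0.00421). Col5a2, a fibrillar collagen, stood at 18.6, 6.33 and 18.2 against 43.6, 42.2 and 32.0 CPM (-1.45 ± 0.33, 0.0491), with library 2 lowest, and at -1.10 without that library (0.00108). Mgp, an inhibitor of calcification, stood at 1.51, 3.58 and 6.01 against 0.198, 0.14 and 0.627 CPM (3.64 ± 0.73, 0.0296), a call lost without WT library 1 (0.129), 2 (0.174) or 3 (0.0769), Kmt2d KO library 3 (0.0595) or Kmt2c KO library 3 (0.0504). Its UMIs sat in few cells, 37, 112 and 293 UMIs in 18, 32 and 21 cells of Kmt2d KO libraries 1 to 3, and its call was also lost in cells with H2BMc and Krt8 (0.205), with 2 or more H2BMc UMIs (0.119), without markers of other cell types (0.0782), without a cycle gene UMI (0.0756) or of 5000 UMIs or more (0.0548), with Krt8 alone (0.227), and in the fit without Kmt2c KO libraries (0.0553). Without library 2, 8 glycoproteins and proteoglycans rose and 1 fell, and 4 collagens rose and 2 fell. In that fit 2.84% of all genes tested rose and 2.96% fell. Col3a1 stood at 64.2 and 64.1 CPM in libraries 1 and 3, 11.7 CPM in library 2 and 145, 134 and 101 CPM in WT libraries, a fall that passed without library 2 (-0.98, 0.00268) and not with it (-1.44, 0.151). The calls on Hspg2, Col16a1 and Col5a2 were lost without WT library 1, 2 or 3, at adjusted p of 0.0743 to 0.111, 0.0718 to 0.102 and 0.103 to 0.185. They were also lost without Kmt2d KO library 1 (0.0594, 0.06 and 0.0513) or library 3 (0.0592, 0.0812 and 0.0595), and Col5a2 without any Kmt2c KO library (0.0736 to 0.0779). Other settings also ended the calls on Hspg2 (Krt8 cells, 0.0512, and cells without a cycle gene UMI, 0.0898), Col16a1 (no markers of other cell types, 0.0512) and Col5a2 (0.0508 to 0.112 over 5 settings).

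With all 3 Kmt2d KO libraries, class I MHC genes, whose products show peptides of the cell to CD8+ T cells, were the list with the most calls. Of 23 tested genes 7 were higher and 0 lower, against 1.04% and 1.23% of all genes tested. Without library 2, 12 of them were higher, and the type I interferon response, described below, had 13. That fit called 2.84% of all genes tested higher and 2.96% lower. H2-Q6 stood at 268, 247 and 270 CPM against 70.0, 76.0 and 108 CPM (1.63 ± 0.17, adjusted p = 0.00135). H2-Q4 stood at 607, 734 and 612 against 290, 324 and 358 CPM (1.01 ± 0.11, 0.0022), and H2-Q7 at 64.7, 95.6 and 67.6 against 25.5, 27.3 and 34.8 CPM (1.38 ± 0.16, 0.00252). For H2-Q4 and H2-Q7 library 2 was the highest, and for all 3 genes every Kmt2d KO library lay far above every WT library. The classical heavy chain H2-K1 stood at 4282, 4183 and 4127 CPM against 2700.2, 2705 and 2883 CPM (0.60 ± 0.09, 0.00753), and H2-D1 at 4466, 4711 and 4296 against 2560.1, 2753 and 2818 CPM (0.73 ± 0.09, 0.00252). Some genes of peptide supply were highest in library 2. Tap1, a peptide transporter, stood at 58.3, 158 and 61.7 CPM against 34.9, 35.5 and 44 CPM (1.28, adjusted p = 0.0746, and 0.66 with 0.00269 without library 2), and Psmb9, an immunoproteasome subunit, at 91.8, 279 and 104 against 50.5, 49.0 and 63.4 CPM (1.54, 0.0509, and 0.86 with 0.00108 without library 2). H2-T23 rose with all libraries (1.24 ± 0.23, 0.0222) but not without WT library 1, 2 or 3 (0.0759 to 0.123), in Krt8 cells (0.0583), in cells without a cycle gene UMI (0.0967) or in the fit without Kmt2c KO libraries (0.066). Without library 2 its log2 difference was 0.87 (0.00108). The median over the list was 0.78 with library 2 and 0.37 without it, when 12 genes passed. The H2-Q genes are near-identical copies, so that reads may have been split between them and the value of each alone is uncertain.

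The H2-Q4, H2-Q6 and H2-Q7 promoters are shown because these genes moved together. The stretches are from RefSeq on GRCm38.p6, with the letters of an interferon-stimulated response element in capitals. They were not checked against the sequence of BALB/c, the strain of the mice. The search left the seventh and the eighth letter of the motif free.
H2-Q4, chr17:35379438-35379496, plus strand: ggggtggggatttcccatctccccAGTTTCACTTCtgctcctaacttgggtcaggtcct
H2-Q6, chr17:35424672-35424730, plus strand: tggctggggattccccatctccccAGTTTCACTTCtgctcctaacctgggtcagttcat
H2-Q7, chr17:35439016-35439074, plus strand: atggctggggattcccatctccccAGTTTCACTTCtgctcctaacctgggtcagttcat
The stretches of 59 bases were identical at 84.7 to 89.8% of positions when aligned at the motif, without gaps. These letters, on either strand, were found upstream of 5 of the 7 genes of the class I list that rose (H2-K1, H2-D1, H2-Q4, H2-Q6 and H2-Q7). H2-Q1, H2-Q2 and H2-Q10 also rose but lie outside the list, and they were not part of this count. Of all RefSeq promoters 0.435% held them. Class I genes that were not called were not counted, so whether the letters go with the rise was not tested.

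Some interferon-induced genes were higher in Kmt2d KO, with library 2 far above libraries 1 and 3. Of 40 tested genes of the type I interferon response 5 rose and 0 fell, and the median log2 difference was 1.07. Every Kmt2d KO library lay above every WT library for 25 of them. Over all genes tested 11.1% lay so, and 1.04% rose. Without library 2 the median was 0.48 and 13 rose, in a fit where 2.84% of all genes tested rose. For 21 tested genes of the interferon gamma response, the median was 1.89 with library 2 and 0.40 without it, and 0 and 1 rose. For 9 of the 21 every Kmt2d KO library lay above every WT library, and 20 of the differences were positive. Bst2, which encodes the virus-tethering protein tetherin, stood at 355, 771 and 342 CPM against 200, 161 and 211 CPM (1.36 ± 0.28, adjusted p = 0.0318). Ifi27l2a stood at 727, 1162 and 820 against 411, 384 and 497 CPM (1.07 ± 0.17, 0.00939), and Rtp4 at 58.5, 182 and 55.2 against 26.8, 24.2 and 31.9 CPM (1.84 ± 0.41, 0.0471). Library 2 was the highest for all 3 genes, yet libraries 1 and 3 also lay above every WT library. Without library 2, the log2 differences were 0.87, 0.85 and 1.05, with adjusted p of 0.00171, 0.00124 and 0.0013. The calls on Bst2 and Rtp4 were lost without WT library 1, 2 or 3 (0.107 to 0.164 and 0.137 to 0.200), and that on Ifi27l2a without WT library 1 (0.06) or 2 (0.0667). Leaving out a Kmt2c KO library from the shared estimate of spread also ended the calls on Bst2 (0.0504 to 0.0561) and Rtp4 (0.0688 to 0.0803). The other type I genes that rose were Oas1a, an activator of RNase L, at 10.9, 24.6 and 10.6 against 5.56, 3.79 and 6.69 CPM (1.55 ± 0.34, 0.0466), and Ifitm3, a membrane protein that restricts virus entry, at 1972, 2643 and 1751 against 1234, 1289 and 1315 CPM (0.73 ± 0.14, 0.0244). Without library 2 the log2 difference of Oas1a was 1.05 (0.00436) and that of Ifitm3 0.54 (0.00746). Oas1a lost its call without any WT library (0.108 to 0.209) or any Kmt2c KO library (0.0703 to 0.0791). The fit without any Kmt2c KO library ended the calls on Bst2 (0.0896), Rtp4 (0.112) and Oas1a (0.111), as did the absence of cells with a cycle gene UMI (0.0608, 0.0837 and 0.149), which also ended that on Ifi27l2a (0.0577). Rtp4 was lost too in Krt8 cells (0.0661), in cells of 5000 UMIs or more (0.0501) and at a mitochondrial limit of 25% (0.0503), and Oas1a in cells of 5000 UMIs or more (0.0522). Some interferon gamma targets were far higher in library 2 than in libraries 1 and 3. Iigp1 and Zbp1 were picked for being among the highest in library 2 against libraries 1 and 3, so their pattern follows from that choice. Iigp1, an interferon-induced GTPase, stood at 13.8, 185 and 19.0 CPM against 13.3, 8.5 and 16.6 CPM. Zbp1, a sensor of nucleic acids, stood at 8.92, 93.8 and 9.65 against 10.1, 10.9 and 11.7 CPM, and Cd274, encoding the checkpoint ligand PD-L1, at 5.52, 27.6 and 5.23 against 4.27, 3.37 and 4.07 CPM. In libraries 1 and 3 these genes were at or near their WT levels, and without library 2 the log2 differences were 0.40, -0.22 and 0.48, none past the threshold.

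**Figure D4:**
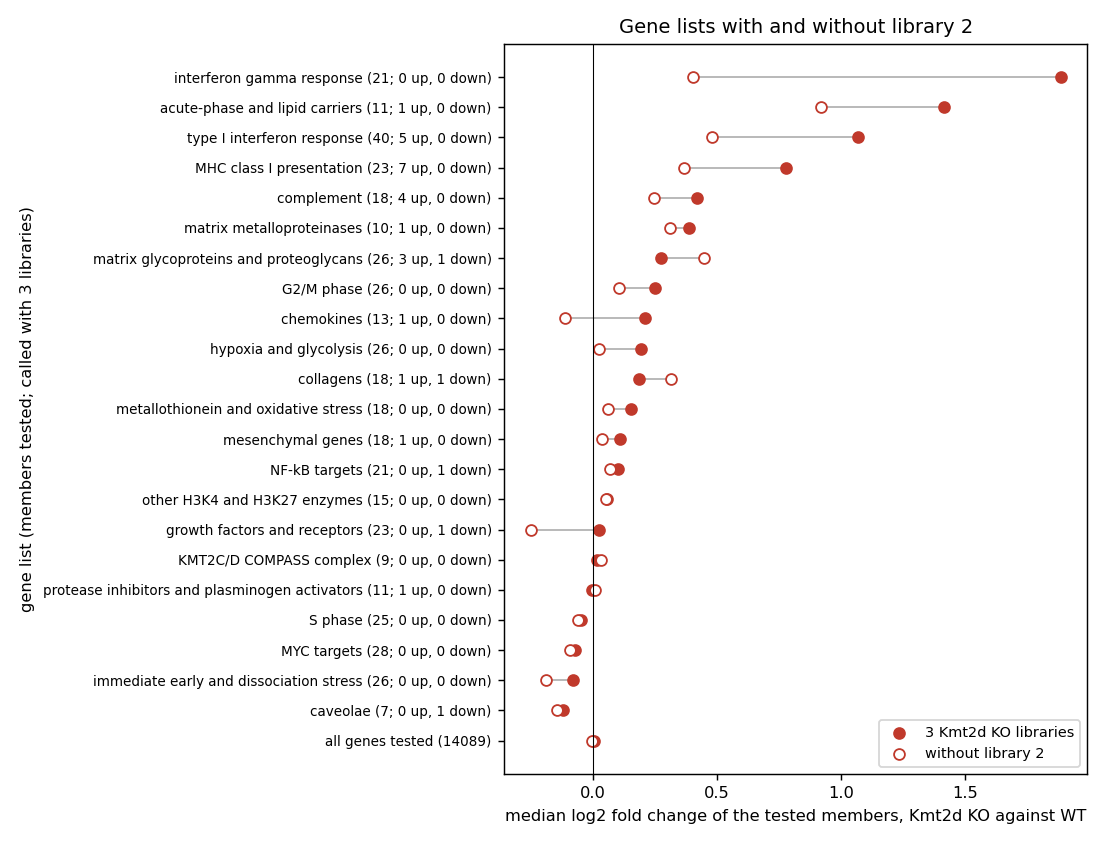
Median log2 fold change of the tested members of each gene list, with all 3 Kmt2d KO libraries (filled) and without library 2 (open), beside the number tested and called. The interferon lists and class I presentation move toward 0 without library 2, and the S phase, MYC target and KMT2C/D complex lists lie within 0.1 of 0 in both.

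Of 18 tested complement genes 4 rose and 0 fell, against 1.04% and 1.23% of all genes tested. C3, the central protein of the complement cascade, stood at 23.6, 101 and 17.3 CPM against 1.98, 2.53 and 1.46 CPM (4.53 ± 0.78, adjusted p = 0.0161, and 3.30 with 0.000514 without library 2). Slpi, a secreted inhibitor of leukocyte proteases, stood at 256, 566 and 155 against 29.8, 86.2 and 53.5 CPM (2.52 ± 0.54, 0.0414). Library 2 was the highest for both genes, and libraries 1 and 3 also lay above every WT library. Cfb (3.85 ± 0.86) and C1s2 (0.91 ± 0.18), both of the complement cascade, rose as well. Without library 2 the log2 differences were 1.85 for Slpi (0.0211), 3.10 for Cfb (0.0194) and 0.80 for C1s2 (0.0262). Of 11 tested acute-phase genes and lipid carriers 1 rose, with a median of 1.42, or 0.92 without library 2. It was Apod, a lipid carrier, which stood at 78.4, 102 and 95.9 against 41.8, 35.0 and 26.7 CPM (1.42 ± 0.29, 0.0311). Ly6a, a surface protein of the Ly6 family, stood at 126, 624 and 109 against 38.5, 59.3 and 56.9 CPM, and passed without library 2 (1.19, 0.0121) but not with it (2.47, 0.0653). Its relative Ly6c1, the 1 of 5 tested Ly6 genes to pass, stood at 12.9, 43.1 and 13 against 2.98, 3.86 and 3.03 CPM (2.78 ± 0.54, 0.0258, and 1.95 with 0.00165 without library 2). Without WT library 1, 2 or 3, adjusted p rose to 0.0824 to 0.0901 for C3, 0.0901 to 0.163 for Slpi, 0.0844 to 0.137 for Apod, 0.116 to 0.121 for Ly6c1, 0.153 to 0.188 for Cfb and 0.0973 to 0.126 for C1s2. Slpi also lost its call without Kmt2d KO library 1 (0.0533), and Apod and C1s2 without library 3 (0.0715 and 0.0628). Leaving out Kmt2c KO library 2 or 3 ended the calls on Slpi (0.0758 and 0.0549) and Cfb (0.0731 and 0.0611). The fit without any Kmt2c KO library ended those on Slpi (0.0697), Cfb (0.078), C1s2 (0.056) and Ly6c1 (0.0553). The absence of cells with a cycle gene UMI did so for Slpi (0.0869), Cfb (0.236), C1s2 (0.224) and Ly6c1 (0.115). Apod lost its call in cells with H2BMc and Krt8 (0.0687), with Krt8 alone (0.0558), without markers of other cell types (0.0557) and of 5000 UMIs or more (0.0525). Slpi lost it in Krt8 cells (0.0885), Cfb at a mitochondrial limit of 25% (0.0504), and C1s2 in cells with H2BMc and Krt8 (0.0545), with 2 or more H2BMc UMIs (0.23) and in thinned sums (0.165). Among rises and falls of large size outside these lists, Tslp, an epithelial cytokine, stood at 3.36, 10.7 and 4.39 against 1.39, 1.26 and 0.627 CPM (2.46 ± 0.54, 0.0466), Dusp2, a phosphatase of MAP kinases, at 4.38, 7.19 and 3.53 against 1.19, 1.12 and 1.25 CPM (2.08 ± 0.38, 0.0208), and Ccn5, a matricellular protein, at 4.21, 1.98 and 2.26 against 11.3, 16.4 and 6.27 CPM (-2.05 ± 0.36, 0.0182). Without library 2 these log2 differences were 1.81, 1.72 and -1.90. Tslp and Dusp2 lost the call without any WT library (0.134 to 0.185 and 0.0934 to 0.123), Tslp also without Kmt2d KO library 3 (0.0516) or a Kmt2c KO library (0.0506 to 0.0765), and Ccn5 without WT library 1 (0.0703) or 2 (0.1) or Kmt2d KO library 3 (0.0595). Tslp lost it in 5 other settings as well (0.0636 to 0.157), and Ccn5 in the fit without Kmt2c KO libraries (0.0544) and in cells with 2 or more H2BMc UMIs (0.289). In cells thinned to 5000 UMIs, C3 was found in 7.78, 22.2 and 7.23% of Kmt2d KO and 0.575 to 1.12% of WT cells.

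In several programmes few genes or none passed the test, which does not show that they were alike. Over all genes tested only 1.04% rose and 1.23% fell. Of 25 S phase genes and 26 G2/M genes tested 0 passed, with medians of -0.05 and 0.25, and a UMI of at least 1 of 6 cycle genes was found in 44.2 to 66.0% of Kmt2d KO and 50.7 to 62.0% of WT cells. Of 28 MYC targets, 26 genes of hypoxia and glycolysis, 26 immediate early genes and 18 oxidative stress genes 0 passed, at medians of -0.07, 0.19, -0.08 and 0.15. Without library 2 these medians were -0.09, 0.03, -0.19 and 0.06, with 1 hypoxia gene higher and 2 immediate early genes lower, and those of the S phase and G2/M genes were -0.06 and 0.11, with 0 called. Without it, too, 1 mesenchymal gene rose and 2 fell, 1 caveolae gene rose and 1 fell, and 1 NF-kB target rose and 1 fell. In the fit without library 2, 2.84% of all genes tested rose and 2.96% fell. Of 4 tested epithelial genes 0 passed. Krt8 stood at 466, 296 and 427 CPM in Kmt2d KO and 564, 570 and 562 CPM in WT libraries, below all of them, and did not pass (-0.51 ± 0.18, adjusted p = 0.173). Of 18 tested mesenchymal genes 1 rose, Twist2, a transcription factor of mesenchymal tissue, at 35.3, 37.8 and 35.1 against 25, 26.3 and 24.4 CPM (0.51 ± 0.10, 0.0218), a call lost without WT library 1 (0.0988), 2 (0.0901) or 3 (0.103) or Kmt2d KO library 3 (0.0561), or in cells without a cycle gene UMI (0.0608). Of 7 tested genes of caveolae, Cavin2 fell, from 35.5, 22 and 28.4 to 14.5, 13.9 and 13.4 CPM (-1.04 ± 0.18, 0.0161), a call lost without WT library 1 (0.0662) or 3 (0.0668) or Kmt2d KO library 3 (0.0529), or in cells with 2 or more H2BMc UMIs (0.121). Of 21 tested NF-kB targets 1 fell, Il1rl1, a receptor for interleukin-33, at 5.61, 5.15 and 3.84 against 21.3, 13.1 and 12.5 CPM (-1.70 ± 0.31, 0.0207), which was lost without WT library 1 (0.0907), 2 (0.0649) or 3 (0.0535) or Kmt2d KO library 3 (0.0670), or in cells without a cycle gene UMI (0.421). Of 13 tested chemokines 1 rose, Cx3cl1, a membrane-anchored chemokine, at 109, 87.1 and 112 against 62.4, 60.05 and 63.3 CPM (0.73 ± 0.11, 0.00683).

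Some genes differed more from WT in Kmt2d KO libraries 1 and 3 than in library 2. The first log2 difference and adjusted p given for each are from the fit without library 2. These genes were picked from the largest changes of that fit, after its values were seen. Brinp3 fell to 13.6 and 14.0 CPM from 71.0, 64.5 and 63.3 CPM (-2.26 ± 0.11, adjusted p = 2.2e-07), with library 2 between, at 37.7 CPM, and it passed with all 3 libraries too (-1.61, 0.0318). Thsd4, a matrix protein of microfibrils, rose to 49.5 and 53.6 CPM from 5.65, 7.23 and 7.10 CPM (2.94 ± 0.13, 1.1e-07), with library 2 at 12 CPM, and with that library its call (0.0208) was lost without any WT library (0.0957 to 0.109) or Kmt2d KO library 3 (0.0543), in Krt8 cells (0.0567) and in the fit without Kmt2c KO libraries (0.0689). Cd248, a surface protein of mesenchymal cells also called endosialin, fell to 1.06 and 1.91 CPM from 7.94, 6.46 and 5.85 CPM (-2.10 ± 0.26, 0.000578), with library 2 at 6.81 CPM, within the WT range. Hs3st6, a heparan sulfate sulfotransferase, rose to 5.11 and 6.77 CPM from 0.627 to 1.26 CPM (2.5 ± 0.26, 0.000244), with library 2 at 0.927 CPM. Cd248 and Hs3st6 did not pass with library 2 (adjusted p = 0.335 and 0.139).

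The called genes were then placed on the genome with RefSeq positions on GRCm38.p6, which 309 of the 320 have. In 7 runs of 3 or more called genes with no gap over 500 kb lay 32 of them. A run on chromosome 17, from Cfb to Gm8909, held H2-D1 and 6 H2-Q genes, all higher, with Sapcd1 (-0.37) and 2310061I04Rik (-0.41), which fell, and a second run on that chromosome held Tapbp and H2-K1, which rose, and Kank3, which fell (-0.99). On chromosome 3 Gstm2 (-0.42), Gstm5 (-0.92) and Gstm7 (-1.44), which encode glutathione S-transferases, all fell. The end of the X chromosome stood out in a description of all tested genes by position. Of 404 windows of 5 Mb with at least 10 tested genes, the window of X that holds the genes from Gemin8 to Mid1 (chrX:166170454-169990798) had a median log2 difference of 0.83, while the next highest was 0.30 and the lowest -0.39. It was 0.86 without library 2, and with windows of 10 Mb the window holding them was again the highest, at 0.47. Of 12 tested genes in the window 8 rose, and 10 had all Kmt2d KO libraries above all WT libraries, against 1.04% and 11.1% of all genes tested. The window was picked for its median, so these counts follow in part from that choice. Just before its lower limit Vegfd, Piga, Mospd2 and Fancb also lay above WT in all Kmt2d KO libraries. Of these Piga and Mospd2 were called, and Siah1b before them overlapped. Ofd1, a gene of the centriole, stood at 14.1, 12.7 and 13.7 CPM without TMM scaling against 5.10, 7.36 and 5.73 CPM (1.11 ± 0.14, adjusted p = 0.00311), and Mid1, a ubiquitin ligase of microtubules, at 7.07, 8.81 and 9.51 against 4.20, 3.47 and 3.58 CPM (1.15 ± 0.16, 0.00474). Msl3, a member of the MSL histone acetyltransferase complex, stood at 31.8, 26.0 and 33.7 against 13.4, 15.8 and 13.7 CPM (1.06 ± 0.13, 0.00252). Tmsb4x, encoding an actin-binding peptide, did not follow its neighbours (-0.01). Summed over the 11 other genes of the window, the levels were 159, 147 and 169 CPM in Kmt2d KO, 80.8, 97.6 and 91.0 CPM in WT and 142 to 149 CPM in Kmt2c KO libraries.

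**Figure D5:**
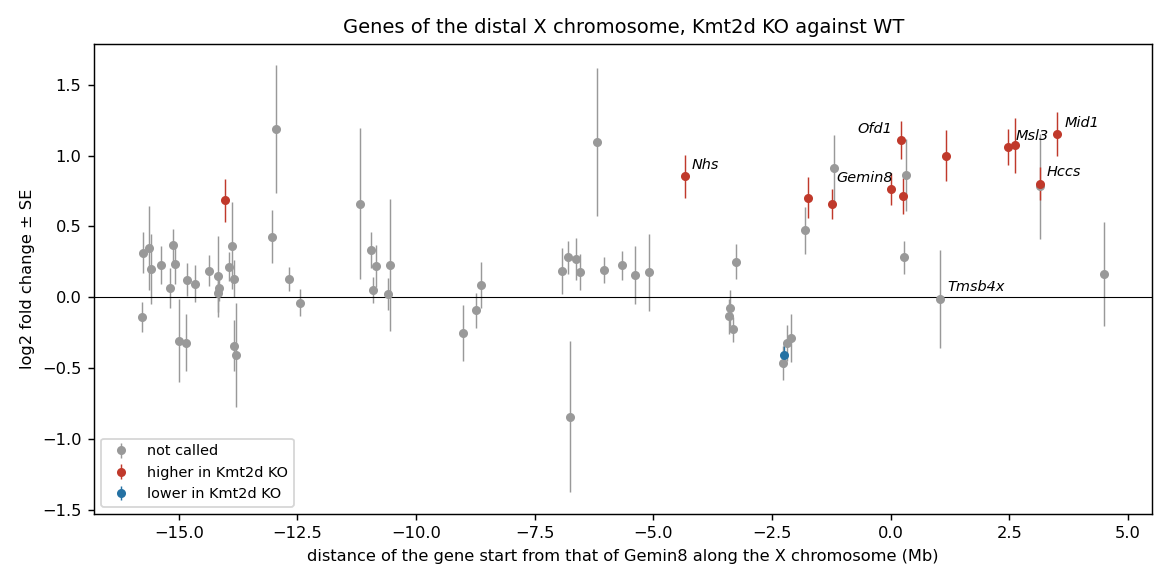
Log2 fold change ± SE of tested genes on the distal X chromosome by the distance of their start from that of Gemin8 in Mb. Red points are genes called higher, grey points genes not called and the blue point a gene called lower, and from Gemin8 to Mid1 10 of 12 genes lie between 0.72 and 1.15, with Rab9 at 0.28 and Tmsb4x at -0.01.

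Some of the genes above stood at like levels in the Kmt2c KO libraries, which share the WT controls and were made with other guides, and others did not. Since library 2 has levels like those of Kmt2c KO, genes that are alike in all 3 libraries labelled Kmt2d KO are in part chosen to be alike there too. Without TMM scaling, Ptar1 stood at 13.4, 12.3 and 14.5 CPM there, Arhgap30 at 5.40, 4.63 and 5.02 CPM and 3830417A13Rik at 0.0881, 0 and 0.0333 CPM. Cavin2 stood lower in Kmt2c KO, at 5.23, 5.45 and 3.93 CPM against 14.5, 14.2 and 13.6 CPM in Kmt2d KO. Mmp3 stood higher, at 166, 324 and 257 CPM, as did H2-Q6 at 418, 415 and 324 CPM. By 4-fold, 6 genes parted all 3 libraries labelled Kmt2d KO from all WT libraries and 5 parted all 6 knockout libraries from them. At 2-fold these counts were 40 and 37. For Kmt2d KO libraries 1 and 3 alone, 10 genes parted from WT by 4-fold and 62 by 2-fold.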

How the data were processed

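The deposited matrix holds whole-number UMI counts per gene and barcode, made by the authors with Cell Ranger 7.0.1 on mm10, per the labels' processing notes. A barcode's library was read from its suffix and its genotype from the letter in the aggregation table. The sources used here do not say which library carries which replicate number of the labels. UMIs of H2BMc cells were summed per library, since cells are not replicates, and tested with edgeR 4.0.16 (R 4.3.3): filterByExpr, TMM, glmQLFit and glmQLFTest with all 9 libraries and genotype as the only factor, Kmt2d KO minus WT. A gene counted as called when its p, adjusted after Benjamini and Hochberg, was under 0.05. An SE is the absolute log2 fold change divided by the square root of F. Doublets were not removed. On simulated counts for this comparison (13919 genes), 49 of 50 genes raised by 2 on the log2 scale were called. So were 36 of 49 raised by 1, 14 of 47 raised by 0.5 and 4 of 13727 unchanged genes. The counts were drawn around the WT profile with a common dispersion of 0.0188 for every gene. No simulated library departed from its group as library 2 does, so these rates may not hold for the data. P-values measure the spread between tumours of 1 line per genotype, and counting intervals would cover counting error only. Named genes were a set list, the 10 largest rises and 10 largest falls among called genes at 5 CPM or more, up to 4 called members of each list, the 5 smallest p-values, and the 5 genes highest and 5 lowest in library 2 against libraries 1 and 3. Genes of the separating, positional and library 2 comparisons were named after their values were seen. Some genes that these rules name are not reported here. The members, lists and rules were chosen with earlier results of these data known. Summed UMIs per library set the depth. Alternatives were DESeq2 1.42.0, other scalings, filters, cell choices, thinning and leaving out each library.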

Additional observations from a re-analysis of the deposited data

How the results depend on the processing

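The number of called genes moved with the setting more than the direction of the named genes did. Against 320 genes (147 higher, 173 lower), DESeq2 called 703 (331 and 372), the absence of a low-count filter 516, of which 315 were higher (61.0% against 45.9%) and 201 lower, and a fit of the Kmt2d KO and WT libraries alone 177 (86 and 91). Cells with 2 or more H2BMc UMIs gave 209 genes, of which 93 were lower, and cells without a cell cycle gene UMI gave 147 (66 and 81). Leaving out each library in turn gave 98 to 823 genes, 48 to 403 higher and 47 to 420 lower, the fewest without WT library 1 and the most without Kmt2d KO library 2. Some of these fits held fewer libraries or cells, while DESeq2 and the fit without a low-count filter used the same ones as the main fit. The cause of the changed counts was not tested. RLE scaling, no scaling factors, cells with Krt8, other mitochondrial limits, cells without other cell markers, cells of 5000 UMIs or more and sums thinned to the smallest library gave counts within 1.5 times of the total. Scaling moved the median of all genes by at most 0.03. Of the 44 picked genes that passed, 20 passed in all 23 alternatives, 24 lost the call in at least 1, and 0 turned their direction. Without cells holding a cycle gene UMI, 2 of the 320 genes had the other sign. The log2 fold change of Kdm6a turned its sign at -0.00589 (cells with H2BMc and Krt8), -0.086 (2 H2BMc UMIs), -0.011 (Krt8 alone), -0.017 (no cycle gene) and -0.043 (thinned), and ran from -0.021 (without Kmt2d KO library 1) to 0.044 over the fits that left out a library, with -0.0042 without WT library 3. Kmt2c turned to -0.038 (Krt8 alone) and -0.10 (no cycle gene). Over the same left-out libraries Gbp2b ran from -0.073 to 2.25, Zbp1 from -0.22 to 2.25 and Clu from -0.53 to 0.23, the turned values being those without Kmt2d KO library 2. The mean share of H2BMc cells in WT libraries was 33.5% at a mitochondrial limit of 25% and 42.0% at 10%, against 38.4%. No paired analysis was possible because the aggregation table does not tie libraries to the replicate numbers of the labels. The low-count filter left 14089 of the 23482 genes tested without it.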
